A study of Mus musculus with 6 samples.

Results

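The core circadian clock genes of the lung were followed here as 10 genes of 19752 that could be named on the array. They were taken by symbol as known parts of the loop. Arntl, Npas2 and Clock form the positive arm, and Per1, Per2, Per3, Nr1d1, Nr1d2, Dbp and Tef form the negative arm with its outputs. Every probe whose RefSeq accession belongs to 1 of these genes was taken, which gave 11 probes, 2 of them for Dbp. The study gave C57BL/6 mice mouse histamine-releasing factor (HRF, a secreted form of the Tpt1 product that can bind immunoglobulin E) or PBS into the nose and measured RNA of homogenised whole lung on Agilent 1-colour arrays. There are 6 groups of 1 array each: mice labelled FcRg KO (FcRg-/-) with HRF and with PBS, mice labelled FceRIa KO (FceRIa-/-) with HRF and with PBS, and wild type (WT) mice with HRF and with PBS. FcRg is the signalling chain that several Fc receptors share, and FceRIa is the chain of the high-affinity receptor that holds immunoglobulin E. Age, time of day at sampling, dose, interval after the challenge and the number of mice behind an array are not given in the sources used here. There are no replicates, so a ratio between 2 arrays has no replicate check.

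The circadian clock is a feedback loop of transcription. CLOCK, or its relative NPAS2, pairs with ARNTL (also called BMAL1) and switches on genes through E-boxes, among them the Per genes, Nr1d1, Nr1d2, Dbp and Tef. The PER proteins, with the cryptochromes, then block that pair, and the REV-ERB receptors encoded by Nr1d1 and Nr1d2 repress Arntl and Npas2 through the elements that the ROR receptors use. DBP and TEF bind D-boxes, which are found at Per genes. In mouse lung, as in other tissues, the transcripts of the negative arm therefore rise at the time of day at which Arntl and Npas2 fall, so the balance of the arms follows the time of sampling, and glucocorticoids can induce Per1 apart from that cycle.

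The start sites of these genes were searched for 4 kinds of element that the loop uses, and 4 windows are shown, 1 for each kind. Windows of 300 bases, 250 before the start and 50 after it, come from RefSeq (GRCm38.p6). Of the 10 genes, 9 have a window and several have more than 1, which makes 14. Both strands were searched, and capitals mark a match. The E-box CACGTG was found in 7.15% of 32851 windows of all genes and, among the clock genes, in 1 window of Per1 and both windows of Tef. The variant CACGTT, which shares no match with the first, was found in 4.68% of all windows and in that of Nr1d1, where it reads on the opposite strand. The D-box TTATGTAA or TTACGTAA was found in 1.06% of all windows and stands at 2 places in the window of Per3, at 205 and 158 bases before the start. The core of the ROR element, TAGGTCA or TGGGTCA, was found in 6.45% of all windows and 30 bases after the start in 1 window of Arntl. By window, the E-box was thus in 3 of the 14, and the variant, the D-box and the ROR core in 1 of 14 each. The windows of Nr1d2, Dbp, Npas2 and Clock held no match. A match describes letters only. The windows lie at chr11:69098699-69098998, plus strand (Per1), chr4:151044616-151044915, minus strand (Per3), chr11:98775328-98775627, minus strand (Nr1d1) and chr7:113207261-113207560, plus strand (Arntl), each written 5′ to 3′ along its gene.
Per1, E-box in capitals: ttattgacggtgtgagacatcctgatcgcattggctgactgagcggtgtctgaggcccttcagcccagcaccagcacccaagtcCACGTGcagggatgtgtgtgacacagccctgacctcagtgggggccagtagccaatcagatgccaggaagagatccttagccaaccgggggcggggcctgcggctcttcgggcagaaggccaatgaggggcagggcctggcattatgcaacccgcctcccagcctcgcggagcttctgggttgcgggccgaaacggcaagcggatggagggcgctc
Per3, D-boxes in capitals: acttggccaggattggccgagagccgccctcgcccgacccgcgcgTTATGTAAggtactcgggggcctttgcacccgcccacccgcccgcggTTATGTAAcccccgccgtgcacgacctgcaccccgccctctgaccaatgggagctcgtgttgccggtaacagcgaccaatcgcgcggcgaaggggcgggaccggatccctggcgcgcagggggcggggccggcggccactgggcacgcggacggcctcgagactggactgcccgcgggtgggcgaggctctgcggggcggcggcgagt
Nr1d1, E-box variant in capitals: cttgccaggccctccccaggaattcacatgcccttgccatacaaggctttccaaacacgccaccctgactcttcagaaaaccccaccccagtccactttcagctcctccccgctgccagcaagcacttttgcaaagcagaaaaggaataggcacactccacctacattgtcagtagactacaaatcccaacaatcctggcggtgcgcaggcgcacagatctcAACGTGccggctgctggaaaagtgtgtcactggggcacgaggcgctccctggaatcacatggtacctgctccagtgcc
Arntl, ROR core in capitals: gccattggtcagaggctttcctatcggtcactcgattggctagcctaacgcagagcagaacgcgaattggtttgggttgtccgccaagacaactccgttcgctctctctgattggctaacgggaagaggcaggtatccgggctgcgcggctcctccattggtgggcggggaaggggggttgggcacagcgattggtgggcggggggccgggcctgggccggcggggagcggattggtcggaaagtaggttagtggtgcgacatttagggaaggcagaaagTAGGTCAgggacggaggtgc

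Each array held 59305 spots other than controls, of which 67.5% to 79.6% were well above background, the most on the WT PBS array, and no spot was saturated. A level below is the log2 processed signal taken relative to the 75th percentile of its array, so that a spot at this percentile has the level 0. Levels of different probes cannot be set against each other, and every comparison is of a gene with itself across arrays. All 6 lung epithelial markers (Sftpc, Sftpb, Sftpa1, Ager, Scgb1a1 and Foxj1) were well above background on every array, and their summed log2 level lay between 9.78 and 10.07. The targeted genes did not follow the labels. Fcer1g stood at 4.32 (HRF) and 4.14 (PBS) under the FcRg KO label, 4.45 and 4.07 under the FceRIa KO label, and 4.61 and 3.93 in WT. Fcer1a stood at -1.16 (HRF) and -0.90 (PBS) under the FceRIa KO label, -4.38 and -4.70 under the FcRg KO label, and -4.19 and -4.48 in WT. Whether either probe lies in the deleted part is not given in the sources used here, so the arrays are called by their labels throughout.

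The positive arm was highest on the arrays labelled FcRg KO. Arntl, the partner that both CLOCK and NPAS2 need, stood at -0.09 and 0.16 on the FcRg KO HRF and PBS arrays, -0.87 and -0.65 on the FceRIa KO HRF and PBS arrays, and -1.10 and -1.62 on the WT HRF and PBS arrays. The pairs of the 3 labels did not overlap: FcRg KO was highest, FceRIa KO lay between and WT was lowest. Clock, the other member of that dimer and a histone acetyltransferase, stood at 0.17 and 0.24 on the FcRg KO arrays (HRF, then PBS), 0.02 and 0.14 on the FceRIa KO arrays, and -0.14 and -0.27 on the WT arrays. Its 6 arrays fell in the same order as those of Arntl, over a smaller log2 range of 0.51, against 1.78 for Arntl. Npas2, the relative that can take the place of CLOCK, was dim. It stood at -5.49 and -5.55 on the FcRg KO HRF and PBS arrays, -6.03 and -6.43 on the FceRIa KO arrays, and -5.96 and -5.70 on the WT arrays, and on the FceRIa KO PBS array it was not well above background. Its pair of FcRg KO arrays was again above the other 4, and the FceRIa KO pair was lowest. The scanner software puts the error of 1 spot at log2 0.14 for Arntl and Clock and at 0.20 to 0.33 for Npas2. For Clock, arrays next to each other in its order differed by less than the combined error of their 2 spots. For Npas2 so did FcRg KO PBS and WT PBS, and also FceRIa KO HRF and WT HRF. In whole lung, fewer cells of a type and less RNA per cell cannot be told apart.

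The Per genes, whose proteins form the brake of the loop, fell into different patterns. Per2 stood at -1.75 and -1.68 on the FcRg KO HRF and PBS arrays, -0.79 and -0.44 on the FceRIa KO HRF and PBS arrays, and -0.98 and -0.38 on the WT HRF and PBS arrays. Both FcRg KO arrays lay below the other 4, and within each label the HRF array was the lower. Per3 stood at -3.18 and -3.29 on the FcRg KO arrays (HRF, then PBS), -2.78 and -2.54 on the FceRIa KO arrays, and -2.87 and -1.77 on the WT arrays. The FcRg KO pair was again lowest, and WT PBS stood apart above the rest. Per1, which also answers acute signals, stood at 3.83 and 3.23 on the FcRg KO arrays (HRF, then PBS), 4.37 and 3.75 on the FceRIa KO arrays, and 4.04 and 3.61 on the WT arrays. Here the 3 HRF arrays lay above the 3 PBS arrays without overlap, while FcRg KO was lowest within each challenge. The nearest arrays of the 2 challenges, FcRg KO HRF and FceRIa KO PBS, differed by less than the spot error.

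The REV-ERB genes encode the repressors of Arntl. Nr1d1 stood at 1.11 and 1.48 on the FcRg KO HRF and PBS arrays, 1.57 and 1.76 on the FceRIa KO arrays, and 0.87 and 1.84 on the WT arrays. WT held both its highest and its lowest array, and FceRIa KO lay above FcRg KO without overlap. The nearest arrays, FceRIa KO HRF and FcRg KO PBS, differed by less than the spot error. Nr1d2, the second REV-ERB, stood at 1.21 and 0.91 on the FcRg KO arrays (HRF, then PBS), 1.55 and 1.49 on the FceRIa KO arrays, and 1.16 and 1.54 on the WT arrays. The FcRg KO PBS array was lowest, and the FcRg KO HRF array lay just above WT HRF.

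Dbp and Tef encode D-box activators that carry the rhythm to other genes. Dbp stood at 4.68 and 4.81 on the FcRg KO HRF and PBS arrays, 5.41 and 5.30 on the FceRIa KO arrays, and 4.82 and 5.40 on the WT arrays. Both FcRg KO arrays were below the other 4, though FcRg KO PBS and WT HRF differed by less than the spot error, and the gap closed under each other scaling or probe choice tried. The second Dbp probe spanned 4.72 to 5.61, and it was lowest on WT HRF and highest on WT PBS. Tef stood at 5.11 and 4.90 on the FcRg KO arrays (HRF, then PBS), 5.59 and 5.48 on the FceRIa KO arrays, and 5.09 and 5.76 on the WT arrays. FcRg KO PBS was lowest, FcRg KO HRF and WT HRF were close, and the remaining 3 arrays were higher.

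**Figure D1:**
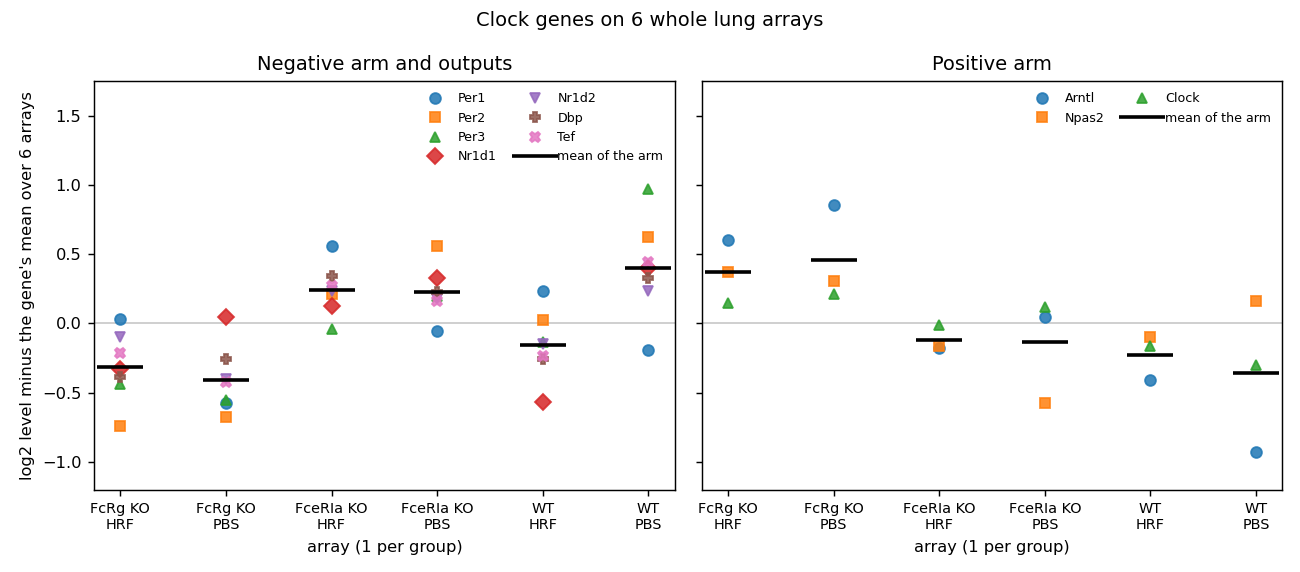
Log2 level of each clock gene minus its own mean over the 6 arrays, for the negative arm and outputs (left) and the positive arm (right); 1 point is 1 gene on 1 array, and black bars are the mean of an arm. The arrays labelled FcRg KO hold the highest positive-arm means (0.37 and 0.46) and the lowest negative-arm means (-0.31 and -0.41).

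The clock genes varied more across the arrays than most genes did. Over the 9 members well above background on every array, the median log2 range was 0.97, against 0.42 over 15679 such genes. A range of at least 1 was reached by 4 of the 9 (Arntl, Per3, Per2 and Per1) and by 9.70% of all such genes. Of the 7 negative-arm genes, 6 had their lowest array under the FcRg KO label, Nr1d1 being the exception with WT HRF. Their highest array was WT PBS for Per2, Per3, Nr1d1 and Tef, and FceRIa KO HRF for Per1, Nr1d2 and Dbp. All 3 positive-arm genes had their highest array under the FcRg KO label.

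Set against each other, the arms lay on opposite sides of their 6-array means on every array except WT HRF. Expressed as the mean deviation of its genes from their own 6-array means, the positive arm minus the negative arm came to log2 0.69 on FcRg KO HRF and 0.87 on FcRg KO PBS, -0.36 on both FceRIa KO arrays, and -0.07 on WT HRF and -0.76 on WT PBS. The FcRg KO arrays thus had the most Arntl-side and the least Per-side transcript, and WT PBS the reverse. WT HRF was the array on which both arms were low, at -0.22 for the positive and -0.15 for the negative arm. The arrays kept this order under all 10 ways of computing it, apart from the FceRIa KO pair, which changed places with each other. Time of day is not in the labels, so sampling time cannot be told apart from label and challenge.

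**Figure D2:**
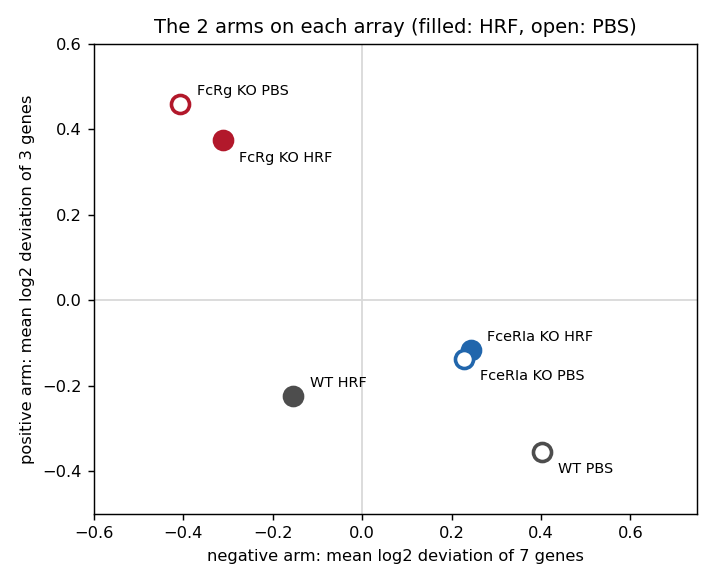
Mean log2 deviation of the 7 negative-arm genes (x axis) against that of the 3 positive-arm genes (y axis), 1 point per array, filled for HRF and open for PBS. Both FcRg KO arrays lie at the upper left, and WT PBS lies at the lower right with -0.35 for the positive and 0.40 for the negative arm.

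The question of the study, what HRF does in the lung, was asked within each label, setting its HRF array over its PBS array as a log2 ratio. In WT the negative arm was lower with HRF in 6 of its 7 genes, as were 57.3% of all genes compared. Per3 was lowest at -1.11, followed by Nr1d1 at -0.97, Tef at -0.67, Per2 at -0.60, Dbp at -0.58 and Nr1d2 at -0.38, while Per1 was higher at 0.43. Of the positive arm, Arntl stood at 0.52, Clock at 0.13 and Npas2 at -0.26. The WT arrays therefore differed in opposite senses for Arntl and for the genes of its repressors. A drop of at least 1.5-fold (log2 0.585) was reached by 4 of the 10 genes (Per2, Per3, Nr1d1 and Tef) and by 9.1% of all genes compared, and a gain of that size by 0 of 10 and 5.45%. The median of the members was -0.48, against -0.05 over all genes. The spot errors of the 2 arrays combine to about 0.20. Per2, Tef and Dbp lay within that of the lower 1.5-fold line, and Arntl and Per1 within that of the upper one. Scaling on the median left 2 genes at least 1.5-fold lower, with Per2 at -0.38 and Tef at -0.45. It put 2 that much higher, Arntl at 0.74 and Per1 at 0.65. With normexp Per2 stood at -0.44. The second Dbp probe differed more, with 4.72 on WT HRF and 5.61 on WT PBS.

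Under the knockout labels the same ratio was small for most clock genes. With the FcRg KO label it ran between -0.37 (Nr1d1) and 0.60 (Per1). Nr1d2 stood at 0.30, Tef at 0.21, Per3 at 0.11, Npas2 at 0.07, Per2 and Clock at -0.07 each, Dbp at -0.13 and Arntl at -0.25. A gain of at least 1.5-fold was reached by Per1 alone of the 10, against 3.52% of all genes, and a drop by 0 of 10, against 3.89%. With the FceRIa KO label Per1 stood at 0.62, Dbp and Tef at 0.11 each, Nr1d2 at 0.06, Clock at -0.13, Nr1d1 at -0.20, Arntl at -0.22, Per3 at -0.24 and Per2 at -0.34. Npas2, dim on the PBS array, was at least 1.31-fold higher on the HRF array, or 0.09 on the log2 scale with normexp. Its difference was under the combined spot error of the 2 arrays, log2 0.44. A gain of at least 1.5-fold was again reached by Per1 alone, against 4.03% of all genes, and a drop by 0 of 10, against 2.55%. Per1 missed 1.5-fold when scaled on the median with the FcRg KO label (0.56) and with normexp with the FceRIa KO label (0.53). The medians of the members were 0.00 with the FcRg KO label and -0.03 with the FceRIa KO label. Whether the ratios differ between labels could not be tested with 1 array per group.

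Per1 was the clock gene that was higher with HRF under every label. Being higher in all 3 pairs held for it and for 16.5% of all genes, and it was the 1 member whose HRF arrays all lay above all PBS arrays, which held for 5.95%. Nr1d1 and Per2 were lower in all 3 pairs, which held for 20.6% of all genes, though the FcRg KO difference of Per2 and the FceRIa KO difference of Nr1d1 were under the spot error. For 0 members did all HRF arrays lie below all PBS arrays, against 7.32% of all genes. In a limma fit over the 6 arrays, with label and challenge as additive terms, the HRF effect was 0.55 for Per1 (SE 0.08, adjusted p = 0.557), -0.52 for Nr1d1 (SE 0.19, adjusted p = 0.557) and -0.34 for Per2 (SE 0.13, adjusted p = 0.557, Benjamini-Hochberg over all genes). No member passed an adjusted p of 0.05, and neither did any other of the 17605 genes tested (0%). Before adjustment limma put 1552 genes (8.82%) under 0.05, and Per1 was the 1 member among them. The residual of this fit is the interaction of label and challenge, with 2 degrees of freedom, so its p-values say nothing of how mice of a group vary.

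**Figure D3:**
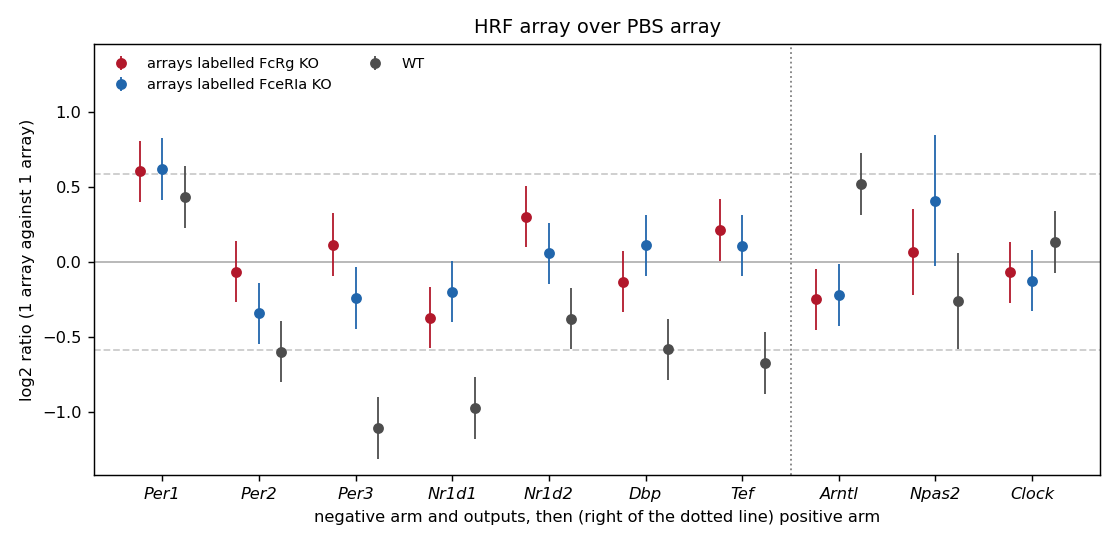
Log2 ratio of HRF over PBS for each clock gene, 1 point per label with bars for the combined spot error of the 2 arrays; dashed lines mark 1.5-fold. The WT points of Per3 (-1.11) and Nr1d1 (-0.97) lie lowest and all 3 points of Per1 lie above 0; Npas2 with the FceRIa KO label is plotted as measured although its PBS spot was not well above background.

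With PBS, more clock genes were at least 1.5-fold off WT under the FcRg KO label than under the FceRIa KO label, while with HRF the count was 2 for each. On the PBS arrays Arntl was higher under the FcRg KO label by log2 1.78. Of the 10 genes, 1 was at least 1.5-fold higher, against 2.72% of all genes, and 5 were at least 1.5-fold lower, against 10.7%. The 5 were Per3 at -1.53, Per2 at -1.30, Tef at -0.87, Nr1d2 at -0.63 and Dbp at -0.59. Per1 and Nr1d1 were also lower, at -0.38 and -0.36, and Clock and Npas2 were higher, at 0.51 and 0.14. All 7 negative-arm genes thus lay below WT, as did 51.4% of all genes, and all 3 positive-arm genes above it. Scaling on the median instead of the 75th percentile raised ratios to the WT PBS array by 0.22 to 0.27 and turned the sign of no member in this comparison, but it left 3 genes at least 1.5-fold lower and put 2 that much higher.

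On the HRF arrays the gap between the FcRg KO label and WT was narrower. Arntl was higher by 1.01, against 4.58% of all genes at least 1.5-fold higher, and Per2 was lower by 0.77 on the log2 scale, against 8.64% at least 1.5-fold lower. The other members stood between -0.31 (Per3) and 0.47 (Npas2). Tef at 0.02 and Nr1d2 at 0.05 were about level with WT. In the limma fit over both challenges, the FcRg KO label minus WT was 1.40 for Arntl (SE 0.24, adjusted p = 0.274), -1.03 for Per2 (SE 0.16, adjusted p = 0.248), -0.92 for Per3 (SE 0.34, adjusted p = 0.383) and 0.41 for Clock (SE 0.11, adjusted p = 0.340). No member passed, while 26 of 17605 genes did (0.148%), 1 higher and 25 lower. At an unadjusted p under 0.05 there were 4 members (Arntl, Per2, Clock and Per1), against 13.4% of all genes. Both FcRg KO arrays lay above both WT arrays for Arntl, Clock and, by less than the spot error, Npas2, as they did for 22.3% of all genes. They lay below them for Per2, Per3 and, by less than the spot error, Dbp, as they did for 21.6%.

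The FceRIa KO label showed another picture. On the PBS arrays Arntl was higher than in WT by 0.97, against 1.46% of all genes at least 1.5-fold higher, and Clock stood at 0.41. Per3 at -0.78 and Npas2 were lower, against 11.4% of all genes at least 1.5-fold lower. Per3 fell short of 1.5-fold with normexp (-0.45) and with scaling on the median (-0.55). The Npas2 spot of the FceRIa KO PBS array was not well above background, and the WT PBS array was at least 1.64-fold higher on the processed signal. This bound did not hold with normexp background correction, where the log2 difference was 0.03 in the other direction. Tef stood at -0.28, and the other 5 members were within 0.14 of WT in either direction. Of these, Dbp stood at -0.51 on its second probe, and at -0.31 both for the mean of its probes and with normexp. Scaling on the median turned the sign of Per2, Nr1d1, Nr1d2 and Dbp here, all of which were within 0.10 of WT. On the HRF arrays the negative arm was above WT in all 7 genes, while 52.6% of all genes were below it. The arm was led by Nr1d1 at 0.70 and Dbp at 0.59. These 2 of 10 were at least 1.5-fold higher, against 3.58% of all genes, and 0 of 10 were that much lower, against 9.16%. Dbp was at the line, and with normexp (0.56), the mean of its probes (0.58) or its second probe (0.56) it fell short, leaving Nr1d1. The positive arm was close to WT there, with Arntl at 0.23, Clock at 0.16 and Npas2 at -0.07. The limma value of Arntl over both challenges was 0.60 (SE 0.24, adjusted p = 0.426), and no member passed. Neither did any other gene of 17605 (0%), while 2264 (12.9%) had an unadjusted p under 0.05, 0 of them members. Both FceRIa KO arrays lay above both WT arrays for Arntl and, by less than the spot error, Clock, as for 17.2% of all genes. They lay below them for Npas2, also by less than the spot error, as for 24.6%.

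**Figure D4:**
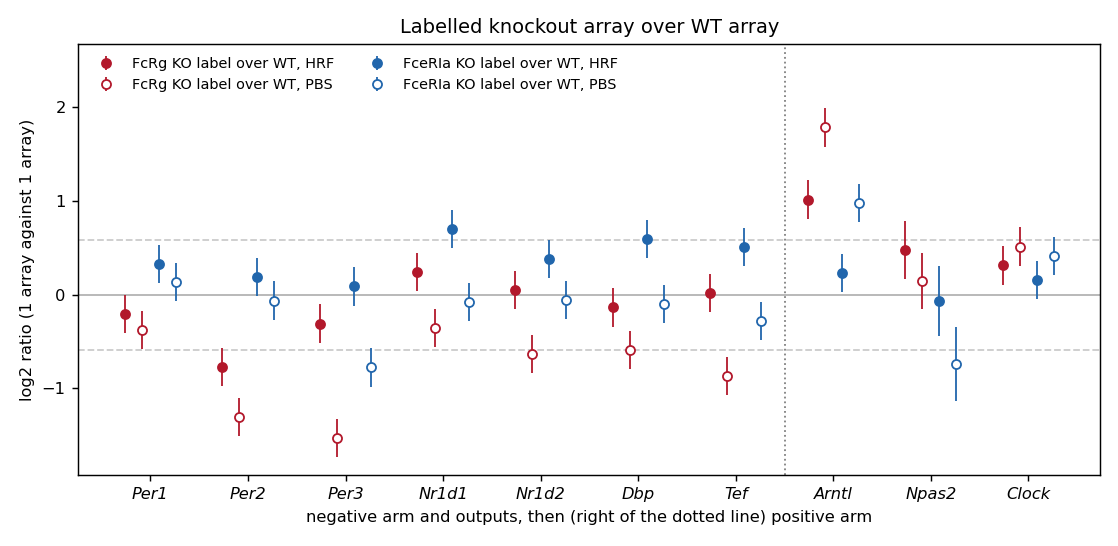
Log2 ratio of each array of a knockout label to the WT array of the same challenge, filled for HRF and open for PBS, with bars for the combined spot error of the 2 arrays; dashed lines mark 1.5-fold. With PBS (open red points) the FcRg KO label lies below WT in all 7 negative-arm genes, and Arntl lies highest at 1.78.

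Set directly against the FceRIa KO label, the FcRg KO label had all 7 negative-arm genes lower and all 3 positive-arm genes higher under both challenges. Of all genes, 43.7% were lower with PBS and 42.9% with HRF. These comparisons share their arrays with those above. With PBS, Per2 stood at -1.24, Per3 at -0.75 and Tef at -0.59 as the 3 genes at least 1.5-fold lower, against 3.02% of all genes. Arntl at 0.81 and Npas2, at least 1.81-fold higher, made up the higher ones, against 5.43%. With normexp background correction the Npas2 difference was 0.22 on the log2 scale, and Arntl was then the 1 gene of the 10 that was at least 1.5-fold higher. With HRF, Per2 stood at -0.96 and Dbp at -0.73, against 4.39% of all genes at least 1.5-fold lower, and Arntl stood at 0.78, against 5.6% at least 1.5-fold higher. On its second probe Dbp stood at -0.55 there, short of 1.5-fold. Of the 7 negative-arm genes, 6 had both FcRg KO arrays below both FceRIa KO arrays, Per1 being the exception, and so had 17.2% of all genes. All 3 positive-arm genes had both above, as had 27.7%. The nearest arrays of the 2 labels differed by less than the spot error for Nr1d1 and Clock. Against the other 4 arrays together, the FcRg KO pair was lower without overlap for Per2 and Per3. At this scaling and probe alone, Dbp joined them, against 7.88% of all genes. The pair was higher for Arntl, Npas2 and Clock, against 11.5%, but for Npas2 and Clock by less than the spot error. In limma this contrast, added after the data were seen, gave -1.10 for Per2 (SE 0.16, adjusted p = 0.293), -0.52 for Per1 (SE 0.10, adjusted p = 0.375) and 0.79 for Arntl (SE 0.24, adjusted p = 0.512). No member passed, and 26 genes of 17605 did (0.148%). Before adjustment, 5 members were under 0.05 (Per2, Per1, Npas2, Arntl and Dbp), against 9.34% of all genes.

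Other genes of the loop were read from a list of 19, all of which could be compared. Their median HRF to PBS log2 ratio was -0.01 with the FcRg KO label, 0.05 with the FceRIa KO label and -0.20 in WT. In limma 0 of 19 passed for any of the effects, and the background shares are those given above. An HRF to PBS ratio of at least 1.5-fold in either direction in some label was seen for 7 of the 19, against 21.6% of all genes. Hlf, the third D-box activator, stood at 0.05 and 0.13 on the FcRg KO HRF and PBS arrays, 0.75 and 0.55 on the FceRIa KO arrays, and 0.52 and 1.12 on the WT arrays. Its FcRg KO arrays were lowest and WT PBS was highest, as for Per3. Ciart, a repressor of the CLOCK pair, stood at -2.63 and -2.56 on the FcRg KO HRF and PBS arrays, -1.93 and -2.10 on the FceRIa KO arrays, and -2.25 and -1.63 on the WT arrays. Its order resembled that of Hlf, with the FcRg KO pair lowest and WT PBS highest. Bhlhe41, an E-box repressor, was lower with HRF in WT, at a ratio of -0.69. Its relative Bhlhe40 ran the other way in WT, at 0.74, and Rorb stood at -0.59 and Btrc at 0.81 with the FcRg KO label.

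Nfil3, the repressor that competes with DBP, TEF and HLF for D-boxes and also responds to cytokines, had the largest HRF to PBS ratio of this list. It stood at 0.77 and 0.58 on the FcRg KO HRF and PBS arrays, 0.65 and 0.04 on the FceRIa KO arrays, and 2.11 and 0.10 on the WT arrays. WT HRF stood apart above the other 5 arrays. The ratio was 2.01 in WT, 0.61 with the FceRIa KO label and 0.18 with the FcRg KO label.

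Of 12 genes known as clock outputs, 3 differed at least 1.5-fold in either direction in some pair, against 21.6% of all genes, and 0 passed in limma for any effect. Usp2, a deubiquitinase, was lower with HRF in WT, at -0.64, with levels of 0.16 on WT HRF and 0.80 on WT PBS. Pdk4, a kinase that spares glucose, stood at -1.75 with the FcRg KO label, and Slc16a1, a lactate transporter, at 1.04. Both of these rest on the FcRg KO PBS array, where Pdk4 was highest of the arrays and Slc16a1 lowest.

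Because Per1 answers glucocorticoids, 12 genes that those hormones induce, Per1 among them, were read beside it. Their median HRF to PBS log2 ratio was -0.04 with the FcRg KO label, 0.42 with the FceRIa KO label and -0.22 in WT. At least 1.5-fold higher were 2 with the FcRg KO label (3.52% of all genes), 5 with the FceRIa KO label (4.03%) and 3 in WT (5.45%). That much lower were 1 with the FcRg KO label (3.89%), 1 with the FceRIa KO label (2.55%) and 3 in WT (9.1%). In limma 0 of 12 passed for any effect. Zbtb16, a zinc finger factor, stood at -0.15 and -0.08 on the FcRg KO HRF and PBS arrays, 2.08 and 2.88 on the FceRIa KO arrays, and 0.76 and 3.35 on the WT arrays. It was lowest under the FcRg KO label and lower with HRF in WT, with a ratio of -2.59. The metallothioneins, which bind zinc and also respond to it, ran the other way in WT, with ratios of 2.60 for Mt2 and 1.33 for Mt1. Pnmt, the enzyme that makes adrenaline, stood at -0.98 in WT. The list thus held genes of both directions in WT, where Per1, itself on the list, stood at 0.43.

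**Figure D5:**
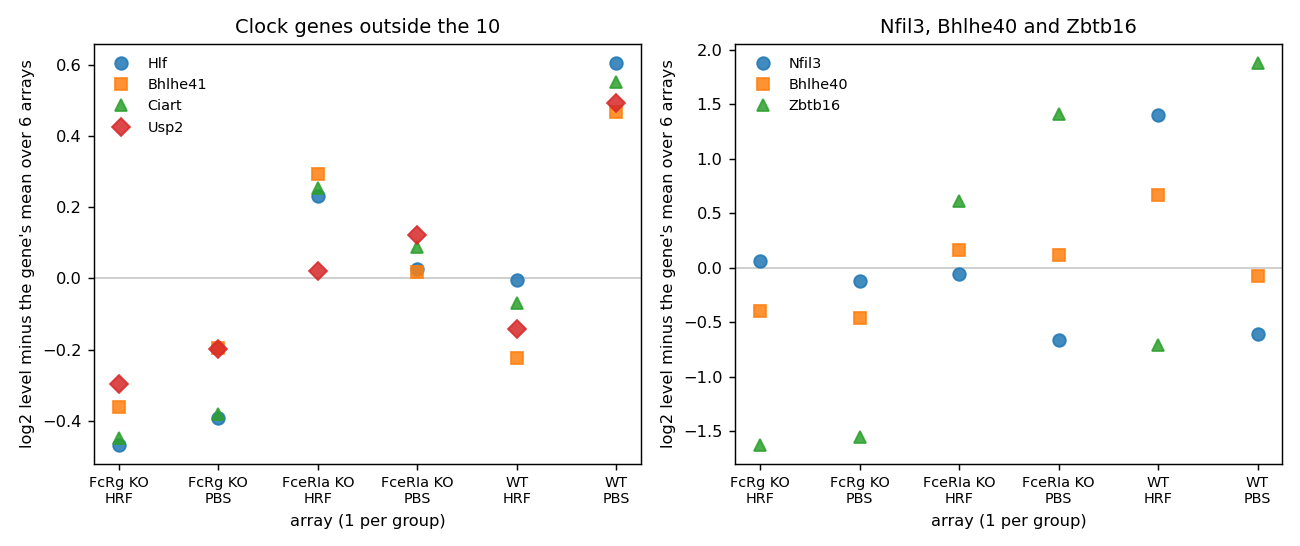
Log2 level of 4 further clock or output genes (left) and of Nfil3, Bhlhe40 and Zbtb16 (right) minus each gene's mean over the 6 arrays, 1 point per gene and array. Hlf, Bhlhe41, Ciart and Usp2 are lowest on FcRg KO HRF and highest on WT PBS, Nfil3 and Bhlhe40 are highest on WT HRF, and Zbtb16 is lowest on both arrays labelled FcRg KO.

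Genes whose pattern was most like the negative arm were sought over the 6 arrays among 1517 other genes that were well above background on every array and had a log2 range of at least 1. The likeness is Pearson's r with the mean of the 7 genes, given as a description of 6 arrays that share their normalization. Among the members themselves r was 0.98 for Tef, 0.95 for Dbp, 0.94 for Per2 and Nr1d2, 0.88 for Per3, 0.69 for Nr1d1 and 0.36 for Per1, each being part of that mean. It was -0.80 for Arntl, -0.61 for Clock and -0.56 for Npas2. Outside them the highest were Mboat2 at 0.979, Zbtb16 at 0.977, Cdca7l at 0.969, Sp6 at 0.947 and Mettl21e at 0.944. The lowest were Skap1 at -0.979, Glrx at -0.964, Cdkn2a at -0.929, Ccr3 at -0.910 and Slfn1 at -0.908. An r of at least 0.9 was reached by 0.593% of these genes and one of at most -0.9 by 0.461%. Among the listed clock and output genes whose range also passed 1, Hlf had the highest r, at 0.92. Btrc stood at 0.78, Tspan4 at 0.53, Slc16a1 at 0.49 and Bhlhe40 at 0.35. Pdk4 stood at -0.33, Rorb at -0.39 and Nfil3 at -0.47.

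The summed markers of brown fat and of heart muscle were highest on the FcRg KO PBS array. The 6 brown fat markers, all on the array, summed to log2 5.71 on FcRg KO PBS and to 3.60 to 3.99 on the other 5 arrays, and Elovl3 was well above background on FcRg KO PBS alone. Not every brown fat marker followed the sum. Ppargc1a stood at -0.45 on FcRg KO PBS and was higher on both WT arrays, at -0.38 (HRF) and -0.05 (PBS). Dio2 stood at -0.89 on FcRg KO PBS and was highest on WT HRF, at -0.13. The 7 heart muscle markers summed to 8.97 on FcRg KO PBS and to 8.03 to 8.49 elsewhere. The FcRg KO HRF array had the lowest brown fat sum, at 3.60, and its arm difference was 0.69, beside 0.87 on FcRg KO PBS. The 4 general fat markers summed to 3.31 and 4.43 on the FcRg KO HRF and PBS arrays, 4.64 and 3.53 on the FceRIa KO arrays, and 3.79 and 3.89 on the WT arrays. The neutrophil markers, of which 7 of 8 were measured, summed to 7.20 and 6.86 on the FcRg KO HRF and PBS arrays. They summed to 7.73 and 7.37 on the FceRIa KO arrays, and to 7.29 and 6.33 on the WT arrays. For the sum, each HRF array lay above its PBS array and WT PBS was lowest. Single markers differed. S100a8, S100a9, Cxcr2 and Retnlg were lowest on WT PBS, but Mpo, Camp and Ngp on FcRg KO PBS. With HRF, Cxcr2 was lower under both knockout labels and Mpo was lower with the FceRIa KO label and in WT. The erythroid markers, of which 2 of 3 were measured, summed to 3.49 and 3.63 on the FcRg KO HRF and PBS arrays, 2.82 and 2.92 on the FceRIa KO arrays, and 2.81 and 3.24 on the WT arrays, so that the FcRg KO pair was highest, as for the positive arm. The 3 eosinophil markers summed to 1.97 and 1.46 on the FcRg KO arrays (HRF, then PBS), 1.78 and 2.04 on the FceRIa KO arrays, and 1.52 and 1.42 on the WT arrays. These markers also differed singly. With the FceRIa KO label the HRF to PBS log2 ratio was -0.62 for Siglecf, but 0.13 for Prg2 and 0.11 for Epx. With the FcRg KO label it was 1.57 for Prg2, 1.42 for Epx and 0.15 for Siglecf. The part of fat, heart muscle, neutrophils, red cells or eosinophils in the clock gene levels was not tested.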

How the data were processed

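Per the file headers, the authors read the arrays with version 10.7.3.1 of Agilent's Feature Extraction. The deposited intensity of a spot, its processed signal, was already corrected for background and spatial trend but not scaled between arrays. The deposited value table holds log2 values whose centring is unstated; the WT PBS column has a median of 0.10 and every other column 0. All 6 arrays lie on 1 slide. Control and outlier spots were left out, spots of a probe were averaged, and the log2 level was taken relative to the 75th percentile of all spots other than controls on the same array. Of 55681 probes, 26056 were named by RefSeq accession (GRCm38.p6), and for a gene with several probes the one with the highest mean was used.

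A gene was compared when well above background on at least 1 array compared, and a ratio to a dim spot is a bound, written "at least", against the higher of that spot and the lowest signal well above background. The tests ran in R 4.3.3 (limma 3.58.1) over 17605 genes (label and challenge as additive terms, Benjamini-Hochberg 0.05). On simulated data for the HRF effect, 99% of genes changed by log2 1 were recovered. On the arrays, the limma SE of that effect lay between 0.08 (Per1) and 0.28 (Per3) among the clock genes. Recovery of such a change at the spread of the arrays was not tested. Other steps used Python 3.11.15, numpy 2.4.6, pandas 2.3.3 and matplotlib 3.10.9. Alternatives were normexp with offset 50 and quantile normalization, the value table, median scaling, other filters, other probe choices, single-term fits and leaving out each array.

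The clock genes and the gene lists were chosen with earlier results of these data known. Members, every list gene past 1.5-fold (up to 8 other clock genes, 6 outputs and 4 glucocorticoid-responsive genes) and the 5 genes at each end of the likeness were named. The number of arrays, 1 per group, limits the precision.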

Additional observations from a re-analysis of the deposited data

How the results depend on the processing

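Over the alternatives, the arm difference stayed between 0.55 and 0.80 on FcRg KO HRF, 0.73 and 0.99 on FcRg KO PBS, -0.41 and -0.27 on FceRIa KO HRF, -0.49 and -0.15 on FceRIa KO PBS, -0.13 and 0.00 on WT HRF, and -1.01 and -0.70 on WT PBS; leaving out Per1 or Npas2 was added after seeing the data. Of the 10 clock genes, 0 passed limma's adjusted p of 0.05 in any of the 4 effects under any of 15 settings. The lowest adjusted p of a member ranged over those settings between 0.404 and 0.903 for HRF, 0.158 and 0.468 for the FcRg KO label against WT, 0.224 and 0.835 for the FceRIa KO label against WT, and 0.107 and 0.817 between the labels. Of all genes, 26 passed for the FcRg KO label against WT and 26 against FceRIa KO, but 0 in either with any 1 of the 6 arrays left out. Normexp gave 43 and 52 such genes, the authors' log2 values 11 and 9, no filter 16 and 13, and a fit without challenge 45 against WT. For the FceRIa KO label against WT, where 0 passed, normexp gave 2, median scaling 25 and a fit without challenge 73. Scaling on the median moved the median of the members for WT HRF against PBS to -0.26, with 2 members at least 1.5-fold higher and 2 lower. It moved the counts for PBS to 2 higher and 3 lower for the FcRg KO label against WT and to 2 higher and 0 lower for the FceRIa KO label. With normexp, Npas2 stood at 0.03 for the FceRIa KO label against WT with PBS, opposite in sign to its measured difference, for a spot that was not well above background; the cause was not tested. Signal over background limits Npas2. The additive fit already pairs HRF with PBS within each label, and the labels carry no replicate numbers for another block.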
